A study of Mus musculus with 8 samples.

Results

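The genes described here are 9 of the 27036 genes counted in mouse prostate RNA, selected by name because their expression in all libraries of early neoplasia lay outside the range of the normal prostate libraries. They are Abcb5, Vsig1, Ugt2b35, Zdhhc3, BC018473 and AV064505, which were higher in early neoplasia, and Zfp429, H2afj and Tead2, which were lower. The values in normal prostate and early neoplasia therefore chose the members, and their difference between those tissues is given as a description without a test. The open question is whether each shift was still there in carcinoma, whose libraries the choice did not use. In carcinoma 4 of the 9 genes stayed on the same side of the normal range in both libraries (Abcb5, Vsig1 and AV064505 above, H2afj below), Tead2 moved past the normal range to the other side, and the other members had 1 or both PCa libraries within that range. Of all tested genes, 17.7% had both PCa libraries above the normal range and 19.6% below it. Among the 9 only Abcb5 passed the test against normal prostate. The normal libraries that set this range also served the choice, so the counts of members are a description.

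Bulk RNA-seq was carried out on 3 WT prostates, 3 prostates with prostatic intraepithelial neoplasia (PIN) and 2 prostatic adenocarcinomas (PCa). Each library has its own number in the sample descriptions, and the labels do not state that each came from a different mouse. The genotype of the mice with PIN and PCa was R26 mTmG/hAR:Osr1 Cre/+, where Osr1-driven Cre switches on the transgene named hARtg in the labels and a membrane GFP reporter in cells of the Osr1 lineage. The WT mice, named WT-control in the labels, carried R26 mTmG/+:Osr1 Cre/+, so all groups shared the reporter and Osr1-Cre, on a mixed background that includes C57BL/6. The controls were matched for age and sex, and the ages of these animals are not given in the sources used here. The paper reports that PCa lesions begin at a later age than PIN lesions in these mice. Age and lesion stage therefore cannot be told apart in PCa against PIN. The lesion tissues were identified by microscopy and, as the authors report, consisted mostly of atypical or tumor cells. The transgene acts only where Osr1-Cre has been active, and each library is a whole tissue piece in which fewer cells of a type and less RNA per cell cannot be told apart.

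PIN is a preneoplastic change of the prostatic epithelium, in which atypical cells fill glands whose outline is still kept, and it can precede invasive adenocarcinoma. The luminal cells of the normal gland make the secretory proteins of the prostate. The members belong to unrelated families: a drug-efflux transporter (Abcb5), an adhesion protein of the immunoglobulin superfamily (Vsig1), a steroid-conjugating enzyme (Ugt2b35), a protein palmitoyltransferase (Zdhhc3), a pair of non-coding transcripts (BC018473, AV064505), a zinc finger protein of the KRAB class (Zfp429), a replacement histone (H2afj) and a transcription factor at the end of the Hippo pathway (Tead2).

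Library totals ran from 21751803 to 29730420 counts. In all, 14034 genes passed the filter of more than 1 CPM (counts scaled to library size) in at least 2 libraries, all 9 members among them, and the members that are high in 1 group only passed through that group. To be called, a gene had to differ by more than 1 log2 unit in either direction with a Benjamini-Hochberg adjusted p below 0.05 in edgeR's quasi-likelihood test. PIN against WT had 0 called genes (0%), with 492 at an unadjusted p under 0.05, 39 called by DESeq2 and 1 by the newer quasi-likelihood method. PCa against WT had 8.54% of genes called (4.35% higher, 4.18% lower), and PCa against PIN 5.72% (2.55% higher, 3.17% lower). Every PIN library lay above every WT library in 6.48% of tested genes and below in 6.38%, which is 1804 genes, so that the members are 9 of many that meet the condition. WT 1 stood apart by its seminal vesicle transcripts, with a summed 15663 CPM for 6 markers against 0.634 and 0.769 CPM in the other WT libraries, 43.9 to 88.7 in PIN and 883 to 3840 in PCa. The 6 prostate secretory markers summed to 56735 to 85119 CPM in WT, 45821 to 67702 in PIN and 1207 to 6009 in PCa, the 4 smooth muscle markers to 1722 to 4196, 2745 to 4928 and 17.0 to 35.5, and the 5 proliferation markers to 51.4 to 58.7, 52.8 to 112 and 510.3 to 549. The 4 leukocyte markers summed to 11.2 to 20.4, 11.6 to 38.6 and 8.81 to 70.8 CPM, the 3 luminal markers to 2165 to 6367, 2496 to 3268 and 2122 to 2849, and the 3 basal markers to 110.0 to 114, 110.0 to 191 and 26.3 to 237. No marker was at 0 in a whole group; the part of tissue composition in the members' values was not tested. The library numbers in the sample descriptions form 3 series, with WT 1 alone, WT 2 and WT 3 together, and all PIN and PCa libraries together, so that this numbering and the difference of either lesion from WT cannot be told apart.

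**Figure D1:**
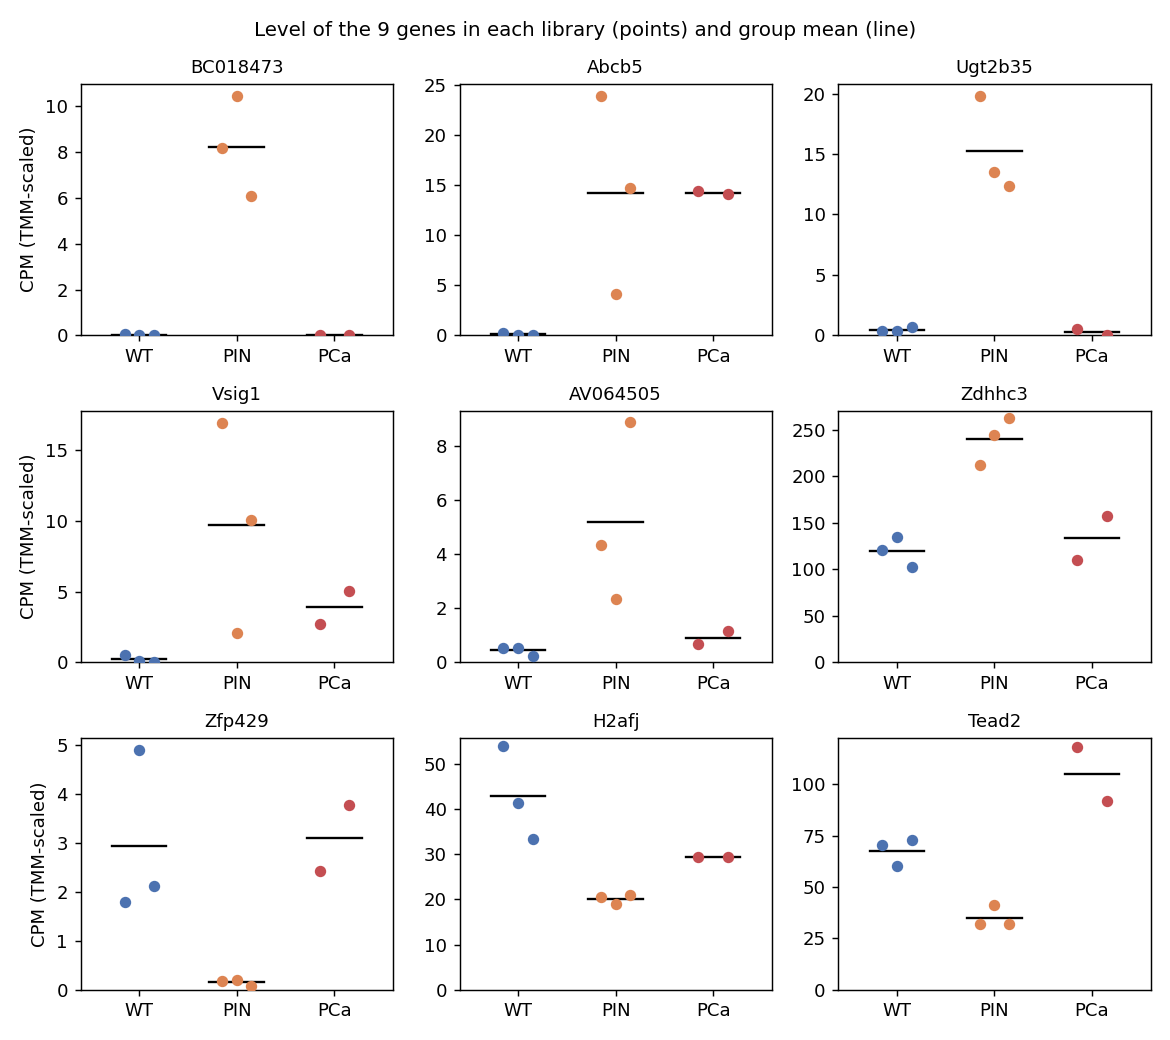
CPM scaled by the trimmed mean of M-values (vertical axis, linear, a separate scale for each gene) for each library of WT, PIN and PCa; points are libraries and lines are group means. Abcb5 lies at 14.4 and 14.1 CPM in PCa while BC018473 and Ugt2b35 return to under 1 CPM, and Tead2 is lowest in PIN and highest in PCa.

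The windows around the annotated starts of the 2 non-coding members are shown because they are the members that hold at least 1 of 2 short motifs searched on both strands. The motifs were GGAATG, the core bound by TEAD factors such as Tead2, and TATAAA, the TATA box; they do not overlap each other in these windows. Each window runs from 250 bases before to 50 bases after the start in the mm9 assembly, is written 5′ to 3′ along the gene's strand, and has the matches in capitals, in reverse complement where they lie on the other strand. The windows are chr9:7695582-7695881 (minus strand) and chr11:116613231-116613530 (plus strand).
AV064505: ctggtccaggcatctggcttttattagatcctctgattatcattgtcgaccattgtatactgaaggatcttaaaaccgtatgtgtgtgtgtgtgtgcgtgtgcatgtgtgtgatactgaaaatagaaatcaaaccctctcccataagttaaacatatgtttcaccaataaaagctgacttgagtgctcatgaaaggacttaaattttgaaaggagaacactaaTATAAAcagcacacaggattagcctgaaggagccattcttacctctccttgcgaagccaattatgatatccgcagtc
BC018473: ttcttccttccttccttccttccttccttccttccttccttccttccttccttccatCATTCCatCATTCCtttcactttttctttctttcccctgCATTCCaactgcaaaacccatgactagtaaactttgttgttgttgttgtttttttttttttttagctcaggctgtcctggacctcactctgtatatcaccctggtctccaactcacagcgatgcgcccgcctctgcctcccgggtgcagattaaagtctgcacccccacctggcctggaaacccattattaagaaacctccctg
AV064505 had 1 TATA box, at position -27 from its start. BC018473 had 3 TEAD cores, in a window that opens with a long TTCC repeat. The TEAD core was found in 12.4% of the 14034 windows of tested genes and the TATA box in 7.92%, so that such letters are common. The windows of the other members, Tead2 among them, held neither motif, and a match is a description of letters and not of binding.

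Abcb5 (chr12:120106297-120204894, mm9, minus strand), an ATP-binding cassette transporter that exports drugs and marks stem-like cells in some epithelia and in melanoma, was within its PIN range in both PCa libraries. Its level was 0.247, 0 and 0.0366 CPM in WT 1, 2 and 3, 24.0, 4.13 and 14.7 CPM in PIN 1, 2 and 3, and 14.4 and 14.1 CPM in PCa 1 and 2. The WT libraries held 6 reads in all, every lesion library was far above them, and both PCa libraries fell between the lowest and the highest PIN library. The group means were 0.0946 ± 0.133 CPM in WT, 14.3 ± 9.93 in PIN (SD, n = 3 each) and 14.3 ± 0.205 in PCa (SD, n = 2). Against WT, Abcb5 was higher in PCa by 7.25 ± 1.13 on the log2 scale (SE), the only member called in this comparison (adjusted p = 0.0128, edgeR quasi-likelihood test). The WT libraries in this test also served to choose the gene, so only its PCa values are independent of the choice. Without WT 1 the difference was 9.19. The call was lost in a model of only WT and PCa (adjusted p = 0.0634) and without WT 3 (0.0596), over a range of 1.11e-10 to 0.0634 in 16 alternatives. The difference between PCa and PIN was 0.00 ± 0.87 on the log2 scale (adjusted p = 0.9996), and without PIN 2, the lowest PIN library, it was -0.44. The comparisons of PCa with PIN here and below share the PIN libraries that chose the members, so that their results are not independent evidence.

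Vsig1 (chrX:137442147-137474011, plus strand), a junctional adhesion protein of the immunoglobulin superfamily known from stomach and testis, was also high in both lesions. Its level was 0.544, 0.0906 and 0.0366 CPM in WT 1, 2 and 3, 16.9, 2.10 and 10.1 CPM in PIN, and 2.70 and 5.07 CPM in PCa. Both PCa libraries exceeded every WT library and lay above PIN 2 and below the other PIN libraries. The group means were 0.224 ± 0.279 CPM in WT, 9.69 ± 7.42 in PIN and 3.89 ± 1.68 in PCa. PCa exceeded WT by 4.14 ± 1.15 on the log2 scale, which missed the threshold in the main test (adjusted p = 0.0648) and passed it with DESeq2 (0.00183), the newer quasi-likelihood method (0.0471), limma-trend (0.0486) and without PCa 1 (0.0435), where the remaining tumor is assumed to vary like the other groups. Without WT 1 the difference was 5.88 (adjusted p = 0.0523). PCa differed from PIN by -1.32 ± 1.08 (adjusted p = 0.515). Within PIN, the highest library had 8.05 times the lowest for Vsig1 and 5.80 times for Abcb5, the widest spreads of the 9 genes. WT 1, the library with seminal vesicle transcripts, held the highest WT value of both genes, and without it the fitted PIN against WT differences moved from 7.25 to 9.19 for Abcb5 and from 5.46 to 7.19 for Vsig1.

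Ugt2b35 (chr5:87429885-87442299, plus strand) encodes a UDP-glucuronosyltransferase of the family that couples steroids, androgens among them, to glucuronic acid. Its level was 0.346, 0.317 and 0.695 CPM in WT, 19.8, 13.5 and 12.4 CPM in PIN, and 0.515 and 0 CPM in PCa. All PIN libraries were high and close to each other, with a mean of 15.2 ± 4.01 CPM, and neither PCa library came near them. PCa 1 lay within the WT range, and PCa 2 had 0 reads where PCa 1 had 16. PCa was lower than PIN, with a log2 difference of -5.85 ± 1.27 (adjusted p = 0.0412), and this call was lost under 7 of 16 alternatives, each of the 3 settings without a PIN library among them, with an adjusted p of up to 0.130. The gene was chosen for its high PIN values and passed the filter through them, so the test is not independent of the choice. PCa against WT gave -0.81 ± 1.07 (adjusted p = 0.670), a value that rests on a tumor within the WT range and a tumor at 0 reads.

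Zdhhc3 (chr9:122975278-123022323, minus strand) encodes a Golgi enzyme that attaches palmitate to membrane proteins and was the member with the highest level per length in PIN, at 20.2 CPM per kb of exon against 10.1 in WT and 11.3 in PCa. Its level was 120.4, 135 and 103 CPM in WT, 212, 244 and 263 CPM in PIN, and 109.8 and 157 CPM in PCa. PIN was about 1 log2 unit above WT (1.00), the difference that chose the gene. Both PCa libraries were below every PIN library, PCa 1 lay within the WT range and PCa 2 just above it. PCa differed from WT by 0.16 ± 0.24 (adjusted p = 0.709), with the sign reversed without PCa 2, and from PIN by -0.85 ± 0.24 (adjusted p = 0.0854). Zdhhc3 shares 1402 bases with Tgm4, the prostate transglutaminase of the secretory cells, on the other strand. Tgm4 had 34902 to 59729 CPM in WT and PIN and 56.0 and 373 CPM in PCa (-7.81 against WT, adjusted p = 0.0123, lost in 2 of 16 alternatives). Whether reads were counted by strand is not given in the sources used here, so reads in the shared stretch cannot be told apart. The part of Tgm4 reads in the level of Zdhhc3 was not tested.

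BC018473 (chr11:116613481-116620687, plus strand), a processed transcript without a protein product in the annotation, was seen almost only in PIN. Its counts were 1, 0 and 0 in WT, 227, 304 and 161 in PIN, and 1 and 1 in PCa, which is 8.17, 10.5 and 6.06 CPM in PIN and at most 0.0494 CPM elsewhere. The 3 PIN libraries lay within 1.73 times of each other. In all, 692 reads in PIN stood against 1 in WT and 2 in PCa, and no fold is given. PCa was lower than PIN in edgeR's test (adjusted p = 0.0105), but the gene was chosen for its high PIN values and passed the filter through them alone, so the test is not independent of the choice. The gene lies wholly within St6galnac1, a sialyltransferase gene on the other strand, whose highest count in any library was 11.

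AV064505 (chr9:7669429-7695631, minus strand), the other non-coding transcript, was higher than WT in every lesion library and highest in PIN. Its level was 0.544, 0.544 and 0.256 CPM in WT, 4.32, 2.34 and 8.85 CPM in PIN, and 0.676 and 1.17 CPM in PCa. PCa exceeded WT by 1.04 ± 0.69 on the log2 scale (adjusted p = 0.372), so its position above the WT range did not pass the test. PCa differed from PIN by -2.48 ± 0.74 (adjusted p = 0.0943), which DESeq2 called (0.00928). The gene shares 3546 bases with Mmp7, the matrilysin protease gene, and 5540 with Mmp20, the enamel protease gene, both on the other strand. Mmp7 had 511, 623 and 417 CPM in WT, 2210, 1238 and 3895 in PIN and 403 and 836 in PCa, the same order of libraries within PIN as AV064505. For each 1000 Mmp7 counts there were 1.06, 0.873 and 0.615 AV064505 counts in WT, 1.95, 1.89 and 2.27 in PIN, and 1.68 and 1.39 in PCa. Mmp20 had 0.593, 0.861 and 0.586 CPM in WT, 2.84, 0.999 and 8.36 in PIN and 0.0965 and 2.91 in PCa. Its order of libraries within PIN was also that of AV064505. Without the strand setting, reads of AV064505 cannot be told apart from those of Mmp7 or Mmp20, and AV064505 is uncertain for this reason.

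**Figure D2:**
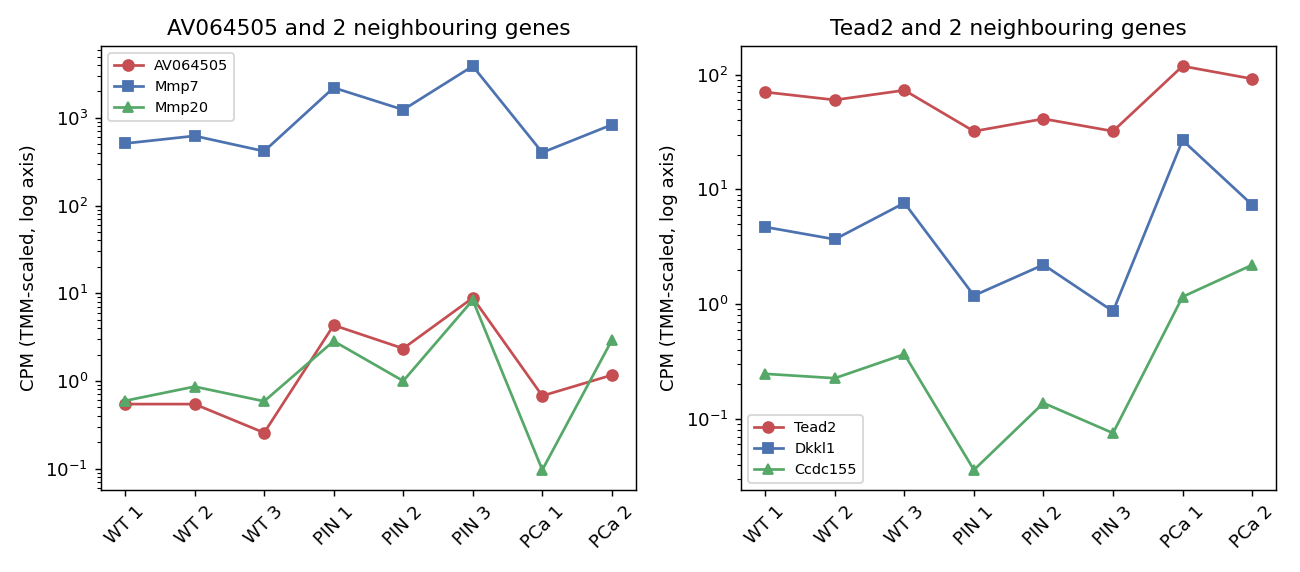
CPM scaled by the trimmed mean of M-values (vertical axis, log scale) in each of the 8 libraries for AV064505 with Mmp7 and Mmp20 (left) and for Tead2 with Dkkl1 and Ccdc155 (right); lines only join the points of a gene. Mmp7 reaches 3895 CPM in PIN 3, where AV064505 is also highest at 8.85 CPM, and Dkkl1 and Ccdc155 are lowest in PIN, as Tead2 is.

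Zfp429 (chr13:67490263-67500703, minus strand) encodes a zinc finger protein of the KRAB class, whose members bind DNA and recruit repressors, and was nearly silent in PIN alone. Its level was 1.78, 4.89 and 2.12 CPM in WT, 0.180, 0.207 and 0.0753 CPM in PIN, and 2.41 and 3.77 CPM in PCa. The PIN libraries held 5, 6 and 2 counts where no other library had fewer than 36, and both PCa libraries lay within the WT range. PCa was higher than PIN by 4.28 ± 0.70 on the log2 scale (adjusted p = 0.0204), a call lost in 4 of 16 alternatives, each setting with 1 PIN library left out among them (0.0687 to 0.0969). The PIN libraries in this test also chose the gene, so its result is not independent evidence. PCa against WT gave 0.08 ± 0.63 (adjusted p = 0.955), with a sign that changed between alternatives. The 9 tested genes among its 10 neighbours, in a cluster of related zinc finger genes, had 0 calls by edgeR in any of the 3 comparisons (0 of them at an unadjusted p under 0.05 in PIN against WT, and for PCa 2 against WT and 1 against PIN).

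H2afj (chr6:136756769-136758595, plus strand) encodes a replacement variant of histone H2A, made outside of DNA replication. Its level was 54.0, 41.4 and 33.4 CPM in WT, 20.4, 18.9 and 21.1 CPM in PIN, and 29.4 and 29.4 CPM in PCa. The PIN libraries lay closer together than those of any other member, with a highest value 1.11 times the lowest, and PCa lay between PIN and WT without overlap with either. The fitted difference was -1.09 for PIN against WT, which chose the gene and is given without a test. It was -0.55 ± 0.24 for PCa against WT (adjusted p = 0.196, edgeR quasi-likelihood test) and 0.55 ± 0.24 for PCa against PIN (adjusted p = 0.225). The intermediate level in PCa thus did not pass the test against either group, in the main test or in any of 16 alternatives.

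Tead2 (chr7:52471123-52489005, plus strand) encodes a TEAD factor, a DNA-binding partner of the coactivators YAP and TAZ that the Hippo kinases hold in check. Its level was 70.3, 60.0 and 72.9 CPM in WT, 32.0, 41.1 and 32.1 CPM in PIN, and 118 and 91.8 CPM in PCa. The 3 groups did not overlap, with PIN lowest and PCa highest. PCa was higher than PIN by 1.58 ± 0.21 on the log2 scale (adjusted p = 0.0129), a call lost in 3 of 16 alternatives, among them those without PIN 1 (0.0537) and without PIN 3 (0.0695). The PIN libraries in this test also chose the gene, so its result is not independent evidence. PCa exceeded WT by 0.63 ± 0.21 (adjusted p = 0.104). A pair of its neighbours on the same chromosome was also lowest in PIN. Dkkl1, a Dickkopf-like gene expressed in testis, had 4.70, 3.67 and 7.61 CPM in WT and 1.19, 2.20 and 0.866 in PIN. In PCa it had 26.7 and 7.34 CPM, the latter within the WT range. The other was Ccdc155, a KASH protein gene of meiotic cells. In PCa against WT edgeR called neither (adjusted p = 0.139 for Dkkl1 and 0.0635 for Ccdc155). PCa was higher than PIN for Dkkl1 by 3.58 (adjusted p = 0.0300) and for Ccdc155 by 4.25 (adjusted p = 0.0270), calls that were lost in 7 of 16 and 6 of 14 alternatives. Ccdc155 had at most 2.19 CPM in any library. In PIN 1, 2 and 3 it had 0.0360, 0.138 and 0.0753 CPM, so the size of its difference is imprecise.

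**Figure D3:**
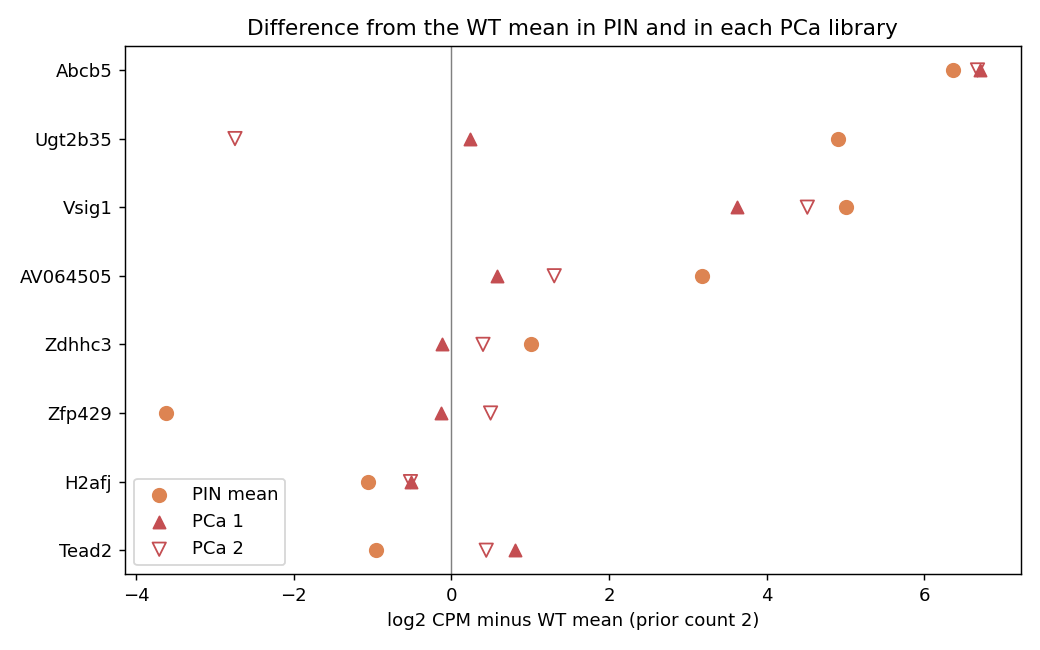
Difference from the WT mean on the log2 CPM scale with a prior count of 2 (horizontal axis) for the mean of the PIN libraries (circles) and each PCa library (triangles), for 8 of the 9 genes; BC018473 is left out for its few reads in WT and PCa. The PCa points of Abcb5 lie beyond the PIN mean, those of Zdhhc3 and Zfp429 between -0.13 and 0.50, and those of Tead2 on the other side of 0. The place of Ugt2b35 in PCa 2, with 0 reads, depends on the prior count, as do the points of Abcb5 and Vsig1, with few reads in WT.

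On that log2 scale the share of the PIN shift left in PCa was 105% for Abcb5, 81.4% for Vsig1, 48.6% for H2afj, 29.6% for AV064505, 14.2% for Zdhhc3, -5.04% for Zfp429, -25.7% for Ugt2b35 and -65.6% for Tead2. The PIN shift in these shares is the difference that chose the members, so the shares are a description. Those of Abcb5, Vsig1 and Ugt2b35 depend on the prior count. The WT counts were 5, 0 and 1 for Abcb5 and 11, 2 and 1 for Vsig1, and Ugt2b35 had 0 reads in PCa 2. A negative share means that the mean of the PCa libraries was past the WT mean. For Tead2 this held in both PCa libraries, while for Zfp429 and Ugt2b35 it held in PCa 2 and not in PCa 1. Both PCa libraries lay above the WT range for 4 members, and below it for 1 member, beside the shares of 17.7% and 19.6% of all tested genes. Both lay above the PIN range for 3 members, where 21.1% of all tested genes did, and below it for 4 members, where 23.2% did. The WT and PIN libraries that set these ranges are those that chose the members, so these counts support nothing. In the tests, 1 of 9 members was called in PCa against WT, where 8.54% of all tested genes were. Against PIN 4 of 9 were called, where 5.72% were (Zfp429 and Tead2 higher, BC018473 and Ugt2b35 lower). The same limit holds for both comparisons. The gap between the nearest PIN and WT libraries ran from 1.46 times for Tead2, the member closest to the edge of the rule, to 17.8 times for Ugt2b35, BC018473 with its 1 read in WT left aside. Of the 6 members higher in PIN, Abcb5, Vsig1 and AV064505 had their lowest PIN value in PIN 2. Per kb of exon, the PIN levels ran from 0.0757 CPM for Zfp429 over 1.51 for BC018473, 3.26 for Abcb5, 3.37 for Vsig1, 4.60 for Ugt2b35, 7.52 for Tead2 and 9.91 for AV064505 to H2afj and Zdhhc3, the highest of all.

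**Figure D4:**
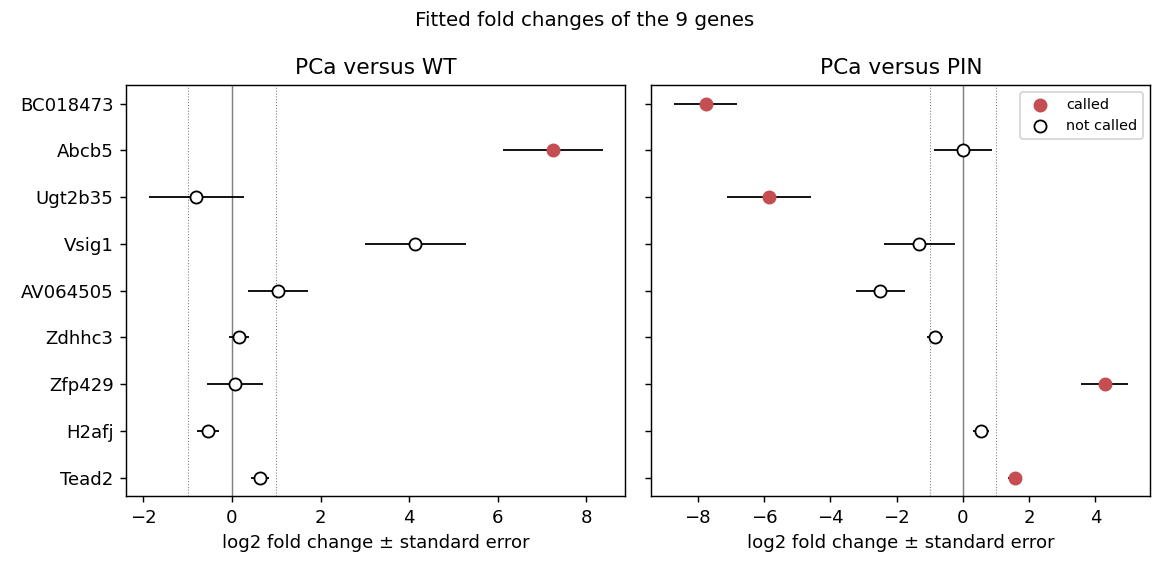
Fitted log2 fold change (horizontal axis) with its standard error (bars) for each gene in PCa against WT (left) and PCa against PIN (right); filled points are called and dotted lines mark an absolute log2 fold change of 1. Abcb5 alone is called against WT, at 7.25, and 4 genes are called against PIN; BC018473 has no point against WT because both groups had 3 counts or fewer, and its fitted value against PIN depends on the prior count.

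The relatives of the members were mostly not called. Of 110 family or pathway genes in the table, 92 were tested, and 0 were called in PIN against WT by edgeR or DESeq2 (1 at an unadjusted p under 0.05), with a median log2 fold change of 0.01 against -0.02 over all tested genes. In PCa against WT 2 of 92 were called, both higher, where 8.54% of all tested genes were called, with a median of 0.14 against 0.01 over all genes. In PCa against PIN 2 of 92 were called, both higher, where 5.72% of all tested genes were, with a median of 0.06 against 0.07. The called genes were Vsig10, an adhesion protein of the family of Vsig1 (1.12 against WT, adjusted p = 0.0412, lost in 11 of 16 alternatives), F3, the tissue factor gene counted among YAP-TEAD targets (2.97 against WT, adjusted p = 0.0272; 2.56 against PIN, adjusted p = 0.0490), and Wwc1, the Hippo adaptor KIBRA (1.42 against PIN, adjusted p = 0.0464, lost in 10 of 16). F3 had 56.5 CPM in PCa 1 and 14.2 in PCa 2, against 3.26 to 8.78 in WT and PIN, its calls were lost in 7 of 16 alternatives against WT and 13 of 16 against PIN, and without PCa 1 neither held.

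Beside Tead2, the 7 tested of 10 other TEAD and coactivator genes had 0 calls by edgeR in any comparison (1 at an unadjusted p under 0.05, in PCa against PIN, where DESeq2 and the newer quasi-likelihood method also called 1). Of the 11 Hippo kinases and adaptors edgeR called Wwc1 alone, and of the 12 YAP-TEAD targets F3 alone, where DESeq2 called 3 targets against WT and 4 against PIN. The median of the 12 targets was 0.18 in PIN against WT, where it was -0.02 over all tested genes. For PCa it was -0.38 against WT and -0.52 against PIN (0.01 and 0.07 over all tested genes), with 4 of 12 positive in either comparison. A relation between Tead2 and these targets was not tested. Among the other families, 9 ABCB transporters, 19 palmitoyltransferases, 15 zinc finger genes of chromosome 13 and 7 histones were tested and had 0 calls by edgeR in any comparison. For PCa against WT, 0 of these transporters, 3 palmitoyltransferases, 4 zinc finger genes and 4 histones had an unadjusted p under 0.05, and for PCa against PIN 0, 2, 2 and 2. In PIN against WT 1 palmitoyltransferase did. DESeq2 called 2 of the zinc finger genes and 1 histone in PCa against WT. A model of PCa and PIN only called 1 palmitoyltransferase and 1 histone. Of 8 other UGT2 genes only Ugt2b34 passed the filter, at 0.692, 0 and 0.110 CPM in WT, 3.28, 1.17 and 1.66 in PIN, and 0.515 and 0 in PCa, with a fitted difference of 2.94 in PIN that was not called (adjusted p = 1). Every PIN library of Ugt2b34 was above every WT library, and PCa 2 had 0 reads, as for Ugt2b35.

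The 5 nearest genes on each side of each member gave 88 neighbours, of which 60 were tested. In PIN against WT 0 were called by edgeR (5 at an unadjusted p under 0.05, 1 by DESeq2), with a median log2 fold change of 0.15 against -0.02 over all genes. In PCa against WT 5 of 60 were called, 1 higher and 4 lower, where 8.54% of all tested genes were, and against PIN 6 of 60, 2 higher and 4 lower, where 5.72% were. Beside Zdhhc3, these were Kif15, a mitotic kinesin (3.29 against WT, adjusted p = 0.0159), Tmem42, a membrane protein (-2.05 against WT, adjusted p = 0.00711; -1.89 against PIN, adjusted p = 0.0107), and Tgm4. Beside Vsig1, they were Irs4, an insulin receptor substrate (-8.12 against WT, adjusted p = 0.00791; -8.85 against PIN, adjusted p = 0.00889), and Col4a6, a basement membrane collagen chain (-6.94, adjusted p = 0.0227; -6.97, adjusted p = 0.0291). Each of these calls was lost in 0 to 7 of 16 alternatives. Irs4 was at 0 and 0.0343 CPM in PCa 1 and PCa 2, so the size of its fold changes depends on the prior count. Irs4 and Col4a6 were lower in PCa than in WT, whereas both PCa libraries were above WT for Vsig1.

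The likeness of other genes to a member was measured as the mean absolute difference of log2 CPM, each centred on its own mean, over the 8 libraries, where 0 is the same profile. BC018473 was nearest to Ugt2b35 (0.98) and Abcb5 to Vsig1 (0.87); the nearest genes of Ugt2b35 and Vsig1 themselves lay outside the members. Vsig1 was nearest to Fam46d (0.66), which had 4.86, 0.344 and 3.16 CPM in PIN and 2.32 and 5.21 in PCa, and Ugt2b35 to Trpm3, a cation channel (0.76), at 54.0, 28.4 and 20.6 CPM in PIN and 2.57 and 0.411 in PCa. AV064505 was nearest to the overlapping Mmp7 (0.44), Zdhhc3 to AL593857.1 (0.15), Zfp429 to Tuba8, a tubulin (0.85), H2afj to Mif, a cytokine (0.12), and Tead2 to Gm7120 (0.19). At a prior count of 0.5 the nearest gene stayed the same for 7 of 9 members, and both pairs of members were lost, with Wfdc6b nearest to BC018473 (1.54) and Fam46d nearest to Abcb5 (0.96).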

How the data were processed

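The authors removed adapters with cutadapt 1.9.1, aligned paired-end reads of ribosome-depleted RNA to mm9 with HISAT2 2.1.0 and counted them per gene with HTSeq 0.6.1, and what was deposited are the raw counts, not normalized. The strand setting and the annotation release are not given in the sources used here. The deposited table also holds a summed exon length per gene, which is no measurement of a sample and served for CPM per kb. The groups came from the labels, and 0 columns of sample values were left unused.

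Analysis was in edgeR 4.0.16 under R 4.3.3 (limma 3.58.1). A gene needed more than 1 CPM in 2 or more libraries, library sizes were scaled by the trimmed mean of M-values, and all 8 libraries were fitted in 1 model of 3 groups with the legacy quasi-likelihood test (5 residual degrees of freedom, common biological coefficient of variation 0.489). Benjamini-Hochberg adjustment of the p-values was over all 14034 tested genes. CPM in the text is on the scaled library sizes, log2 CPM uses a prior count of 2. Totals of 21751803 to 29730420 counts limit the precision of genes with few counts. The steps were tested on simulated data with less spread than these libraries, and changes were placed only in genes with many counts. That test does not cover genes with few counts.

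The members and gene lists were chosen with earlier results of these data known. Named beside the members are the called genes of each list of relatives and neighbours (at most 3 per list and comparison, by fold change) and the nearest gene in profile; Ugt2b34, Mmp7, Mmp20 and St6galnac1 were added as the sole tested relative or overlapping genes, after their values were seen. Start windows were read from the mm9 genome sequence with pysam 0.24.0, at the gene starts of the deposited table. Alternatives were DESeq2 1.42.0, upper-quartile normalization, no filter, filterByExpr, the newer quasi-likelihood method, limma-trend, a model of the 2 groups compared, a replicate block and leaving out each library.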

Additional observations from a re-analysis of the deposited data

How the results depend on the processing

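The number of members with both PCa libraries on the PIN side of the WT range was 4 to 5 in every alternative run. The members called in PCa against WT numbered 1 in the main test, 2 with DESeq2, the newer quasi-likelihood method or limma-trend, 0 in a model of only the 2 groups, and 0 to 3 with a library left out (0 without WT 3, 3 without PCa 1). Those called in PCa against PIN numbered 4, and 1 to 4 with a library left out (1 without PIN 1 or PIN 3, 2 without PIN 2). The log2 difference of Abcb5 between PCa and PIN, near 0 in the main test, was -0.0179 under upper-quartile normalization, -0.0283 with no filter, -0.00807 with filterByExpr and -0.44 (without PIN 2) to 0.62 (without PIN 1) with a library left out. With a library left out, the PCa against WT difference ran from -6.60 (without PCa 1, where the remaining tumor has 0 reads and the value depends on the prior count) to 0.18 (without PCa 2) for Ugt2b35, from -0.11 (without PCa 2) to 0.40 for Zdhhc3, and from -0.26 (without PCa 2) to 0.66 for Zfp429, which was also negative without WT 1 (-0.18) and without WT 3 (-0.11). Without a PCa library the remaining tumor is assumed to vary like the other groups. The cause of these changes was not tested.

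Among relatives, 2 were called in PCa against WT, but 1 under upper-quartile normalization, 7 with DESeq2, 0 in a model of the 2 groups and 0 to 17 with a library left out (17 without PCa 1, 4 without PCa 2, 0 without WT 3 or PIN 3). In PCa against PIN the count was 2, but 1 under upper-quartile normalization or limma-trend, 6 with DESeq2, 0 with no filter or filterByExpr, and 0 to 15 with a library left out (15 without PCa 1). Among neighbours, DESeq2 called 1 in PIN against WT, where edgeR called 0. In PCa against WT the count was 5, but 10 with DESeq2, 0 in a model of the 2 groups and 3 to 11 with a library left out (3 without WT 3, 11 without PCa 1). In PCa against PIN it was 6, but 10 with DESeq2, 3 in a model of the 2 groups and 1 to 11 with a library left out (1 without PIN 3, 11 without PCa 1). Over all genes DESeq2 called 2487 genes for PCa against WT and 1984 against PIN, and a model of the 2 groups 130 and 388.

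The labels do not state that the replicate numbers pair the animals. Deviations from the group mean correlated at 0.099 on average (-0.0562 to 0.284) for libraries with the same number, and at -0.0504 for different numbers. With 2 or 3 libraries per group these deviations are tied to each other, so the correlations cannot decide whether animals were paired. With the replicate block, 1 member was called in PCa against PIN (BC018473; Tead2 had an adjusted p of 0.0621, Zfp429 0.0576 and Ugt2b35 0.0890), 0 relatives in either comparison of PCa, 3 neighbours against WT and 2 against PIN, and Zfp429 turned to -0.11 in PCa against WT. Only 2 tumors were sequenced, and the spread between them limits each comparison with PCa, and counts of 0 to 5 in WT limit the precision of the differences of BC018473 and Abcb5 from WT.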
